A study of Gallus gallus with 8 samples.

Results

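The cytosolic ribosomal protein genes described here were those whose symbol in the probe annotation of the chicken array began with RPL or RPS followed by a digit or a P, without the RPS6K kinases and without symbols ending in L or L1. By this rule 60 genes were found among the 13009 genes that had a probe set with 1 symbol, 38 of the large ribosomal subunit and 22 of the small. In all 76 symbols matched the letters. The 16 left out were 9 RPS6K kinases (RPS6KL1 included), the 6 paralogs RPL22L1, RPL26L1, RPL39L, RPL3L, RPL7L1 and RPS27L, and RPS19BP1, which is no ribosomal protein but a partner of RPS19 and was left out by name. Where a gene had several probe sets, the one with the highest mean deposited signal over the 8 arrays stood for it, and no comparison between days entered this choice. The 60 genes had 130 probe sets, with several for 32 genes and a single one for 28, and all 60 passed the filter on low signals. RPL13A, RPS19, RPL39 and RPL41 were not analysed here.

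The ribosome joins a small subunit, which reads the mRNA, to a large subunit, which forms the peptide bonds. Each subunit is a frame of ribosomal RNA to which a set of ribosomal proteins is added in the nucleolus, the nucleus and the cytoplasm, with the help of many assembly factors that do not stay in the finished ribosome. In mammals the mRNAs of ribosomal proteins begin with a terminal oligopyrimidine (TOP) tract, through which mTOR and LARP1 control their translation, so that the amount of ribosomal protein made is set largely after transcription. The yolk sac endoderm of the bird embryo takes up yolk and secretes serum proteins into the early circulation, which makes it a tissue of heavy protein synthesis.

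RNA came from yolk sac endoderm of chicken embryos on embryonic day 1, day 2, day 3 and day 4, with 2 independent RNA samples and thus 2 Affymetrix Chicken Genome Arrays a day, 8 arrays in all. Each sample was a pool of tissue collected at 4-hour intervals over its day, so a day is an average over that day and not a time point. In every group the endoderm had been freed of the mesoderm with dispase. The labels give no strain, sex or treatment, and all groups were unmanipulated embryos. An array measures the share of a transcript in a fixed mass of total RNA, and in such bulk samples fewer cells of a type and less RNA per cell cannot be told apart.

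The arrays stood at different levels before any scaling. The median deposited signal of all probe sets was 15.6 and 26.0 on the day 1 arrays and between 11.8 and 15.3 on the other 6, in arbitrary units. For this reason the values below are quantile-normalized signals unless they are called deposited, and changes are differences of log2(signal + 16), tested with limma across 23063 probe sets. The 3′ to 5′ signal ratio of the actin control probe sets, a sign of RNA integrity, lay between 1.498 and 4.30. It was lowest on day 1 replicate 2, which also had the highest median signal. Both arrays of day 4, at 4.30 and 3.22, lay above both of day 1, at 2.91 and 1.498. The days in between ranged from 1.74 to 3.77. The ratio thus differed between the days of the main comparison below, and its part in the results was not tested. The endoderm markers TTR, APOA1 and APOB read 6134 to 10270 on all 8 arrays, whereas GATA4 read 17.6 to 27.2 throughout. Summed over 9 endoderm markers, the signal was 26811.7 to 30326.5 on day 1 and 41855.5 to 45310.9 on day 4. Of these 9, 4 were called higher on day 4 than on day 1 and none lower (limma, adjusted p under 0.05). Their median change was 0.47. On the deposited scale 1 was higher and 1 lower, with a median of 0.16. Markers of other tissues set some arrays apart. The summed signal of 10 mesoderm and cardiac markers (VIM, SNAI2 and TNNT2 among them) was 2678 to 3583 at day 1, 426 to 7521 at day 2, 417 to 2423 at day 3 and 423 to 486 at day 4, and the higher array of day 2 and of day 3 was replicate 1 each time. The summed signal of 7 endothelial markers such as CDH5 was 607 to 1314 at day 1, 301 to 2228 at day 2, 263 to 660 at day 3 and 259 to 453 at day 4. The summed signal of 7 erythroid markers, embryonic globins among them, was 1557 to 4394 on day 1 and 32851 to 42470 on day 2. It was 25460 to 30102 on day 3 and 12809 to 20907 on day 4. Between day 4 and day 1, 5 of the 7 were called higher and 2 lower (limma, adjusted p under 0.05). None of these markers was listed at exactly 0, and the part of such cells in the results was not tested.

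The ribosomal protein probe sets were among the brightest of the array on every day. The brightest probe set on each of the 8 arrays was that of RPS20, a protein of the small subunit's head. Of the 60 genes, 54 had a mean deposited signal of 4000 or more, 4 lay between 2000 and 4000, and RPL31 and RPS13 lay below. Between 50 and 54 of them stood among the 200 brightest probe sets of an array. Among the 100 brightest, there were 42 and 40 at day 1, 34 and 32 at day 2, 28 and 30 at day 3, and 30 and 32 at day 4. The count was thus highest on both day 1 arrays. Order within the 60 says where a probe set reads on the scanner's range, not how much transcript there was, since each probe set binds with its own strength.

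As a share of the signal summed over all probe sets, the 60 made up 6.40% and 5.22% at day 1, 6.03% and 6.24% at day 2, 6.04% and 6.19% at day 3, and 6.72% and 6.85% at day 4 of the deposited values. After normalization the shares were 6.67% and 6.67% at day 1, 6.15% and 5.95% at day 2, 5.81% and 5.78% at day 3, and 5.85% and 6.18% at day 4. Day 4 therefore lay above day 1 on the deposited scale and below it on the normalized scale, so the direction of the share is not settled by these files.

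**Figure D1:**
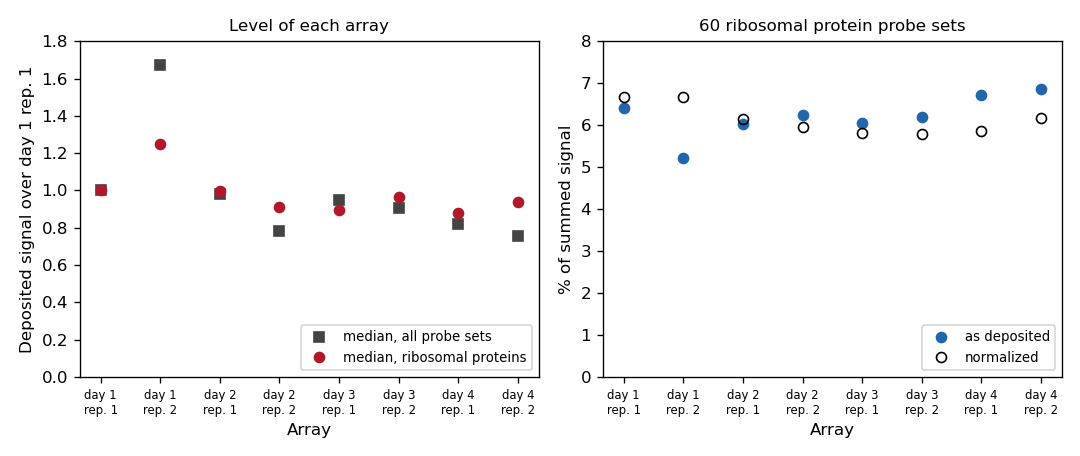
Left, median deposited signal of each array relative to day 1 replicate 1, for all probe sets (squares) and for the 60 ribosomal protein probe sets (circles); right, the share of the summed signal held by those 60, in percent, as deposited (filled) and after quantile normalization (open). Day 1 replicate 2 stood 1.67 times above replicate 1 over all probe sets and 1.25 times over the ribosomal proteins, and the share moves in opposite directions between day 1 and day 4 on the 2 scales.

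Over the 4 days the levels moved little. The highest of the 8 arrays exceeded the lowest by a median factor of 1.26, and the factor was below 1.5 for 54 of the 60 genes and below 2 for 57. The 2 arrays of a day differed by a median of 0.07 on the log2 scale for these genes, against 0.27 over all probe sets tested. Within this narrow range the highest day mean was that of day 1 for 50 genes, day 2 for 1, day 3 for 2 and day 4 for 7. The lowest was that of day 1 for 3 genes, day 2 for 7, day 3 for 37 and day 4 for 13. RPS20, with the same normalized value on every array, was counted under day 1 in both.

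**Figure D2:**
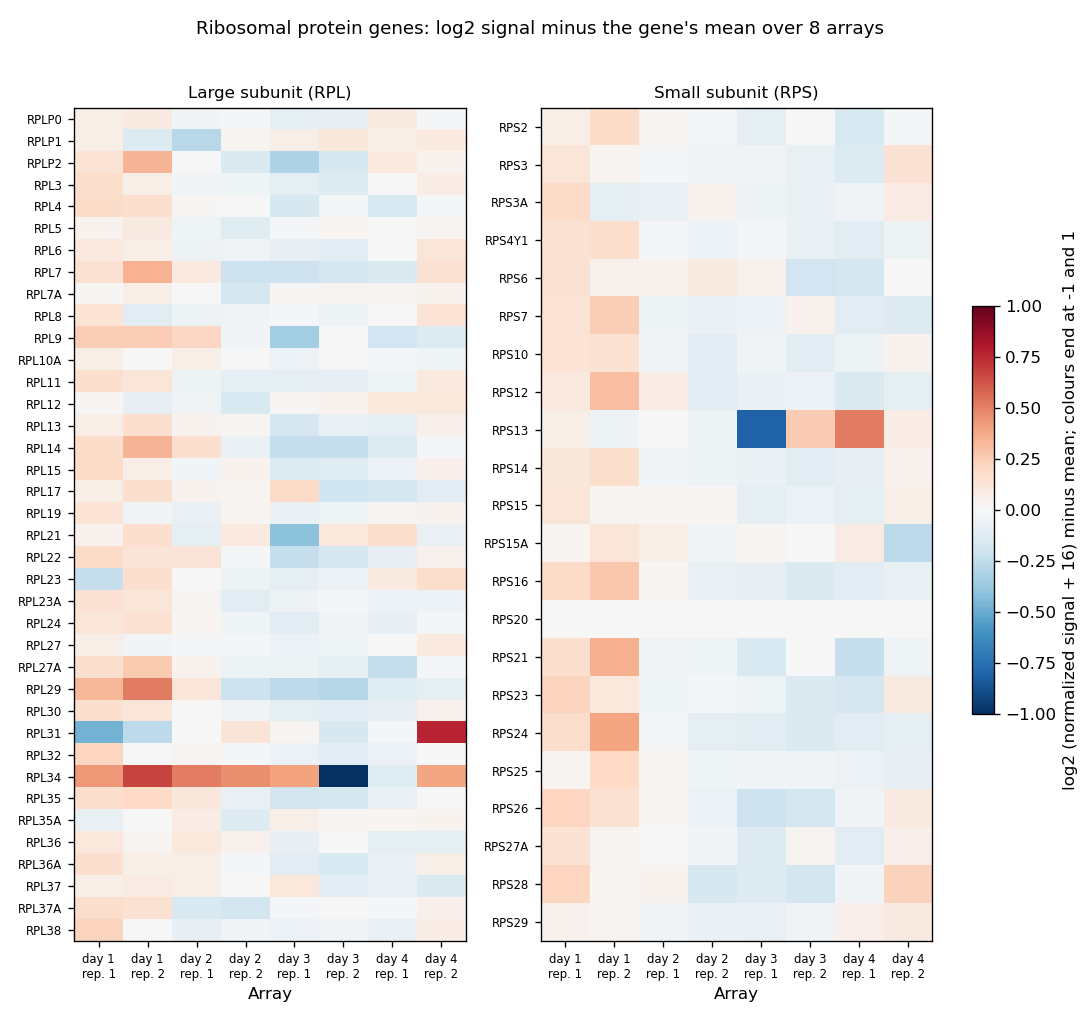
Each row is a ribosomal protein gene (large subunit left, small subunit right) and each column 1 of the 8 arrays; colour gives log2(normalized signal + 16) minus the gene's own mean over the arrays. Most rows are slightly higher on both day 1 arrays and pale elsewhere, with RPL31, RPL34 and RPS13 as the rows of wide spread; RPS20 is flat because quantile normalization gives the brightest probe set of every array the same value.

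The comparison of day 4 with day 1 asked whether ribosomal protein mRNAs change while the endoderm matures. Of the 60 genes, 4 fell and none rose: RPL29, RPS24, RPS21 and RPS16 (adjusted p under 0.05, limma with Benjamini-Hochberg adjustment over all probe sets). Over all 23063 probe sets 12.3% were lower and 10.6% higher by the same test. The share of ribosomal proteins called was below these in both directions, but this gap was not tested and varied with the setting. With a pseudocount of 64, 7 of the 60 were lower, against 12.6% of all probe sets. On the deposited scale, where 27.5% of all probe sets were lower and 3.43% higher, RPL29 alone passed. At an unadjusted p under 0.05, 11 genes were lower and RPL31 was higher, against 8526 of all 23063 probe sets in either direction. The median change of the 60 was -0.15, with a range of -0.53 to 0.74, while the median over all probe sets was -0.01. The median absolute change was 0.16 for the 60, against 0.47 for all probe sets.

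A small shift shared by many members could be seen, but its sign depended on the scaling. The change was below 0 for 51 of the 60 genes after quantile normalization. The 51 include RPS20, whose normalized value is the same on every array, so that its change is only a rounding residue. The median of the 60 was -0.29 on the deposited scale, where all 60 were below 0 and the median of all probe sets was itself -0.55. It was -0.09 with the hybridization controls as the standard (all probe sets -0.41) and 0.07 when the arrays were brought to the same median (all probe sets -0.19). The arrays of day 4 lay wholly below those of day 1 for 35 of the 60 genes and wholly above for 5, where 33.7% and 32.3% of all probe sets did so. By this count the share that was lower exceeded that of all probe sets, and the share that was higher did not reach it.

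The intervals say how large a change these arrays leave room for after quantile normalization. They leave out the choice of scaling, which moved the median of the 60 between -0.29 on the deposited scale and 0.07 at the same median. For 57 of the 60 genes the 95% interval of the day 4 to day 1 change lay within 1 log2 unit on either side of 0, and its bounds ran from -0.86 to 0.51. That was so for 95% of the ribosomal proteins and for 39.9% of all probe sets. The 3 exceptions were RPL31, RPL34 and RPS13. For 44 genes the interval lay within 0.5 log2 unit of 0.

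**Figure D3:**
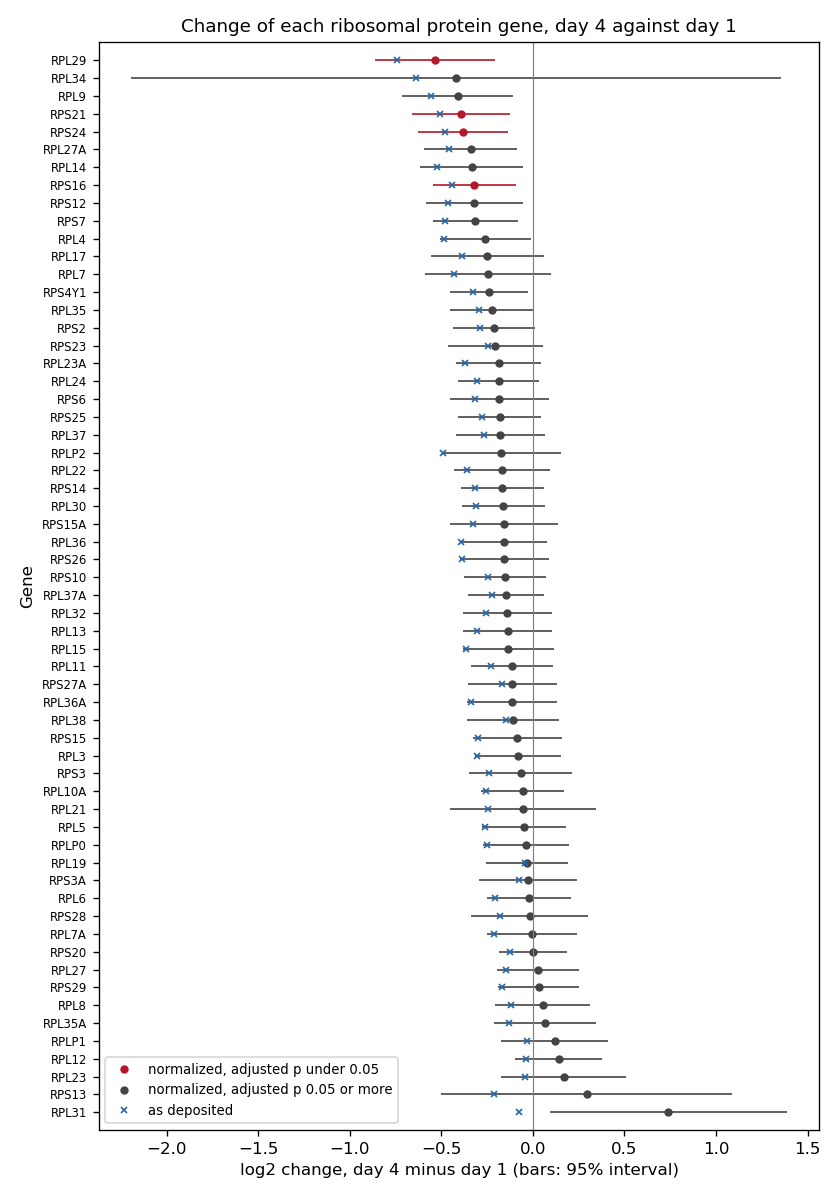
Change of each of the 60 ribosomal protein genes between day 4 and day 1 on the log2 scale, normalized (circles with 95% intervals) and as deposited (crosses), sorted by the normalized change. The 4 genes that passed the test are RPL29, RPS21, RPS24 and RPS16; most intervals are narrow, and the deposited values lie to the left of the normalized ones for all genes drawn here.

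RPL29, a small protein on the surface of the large subunit, had the largest fall among the 4. Its signals were 4832 and 5482 at day 1, 4163 and 3311 at day 2, 3188 and 3132 at day 3, and 3514 and 3584 at day 4. Both day 1 arrays were above all later ones, and the 2 arrays of day 3 were the lowest. It averaged 3549 ± 48.9 on day 4 and 5157 ± 459.5 on day 1 (SD, n = 2 arrays each), a log2 change of -0.53 ± 0.14 (SE; 95% interval -0.86 to -0.21; limma adjusted p = 0.0302). On the deposited scale the change was -0.74 (limma adjusted p = 0.0458). RPL29 was also the single member that passed the F-test over the 4 days (limma adjusted p = 0.0382), a test that 17.3% of all probe sets passed. With the mean of each gene's probe sets, RPS14 passed the F-test in place of RPL29.

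RPS24, a small-subunit protein whose human gene is mutated in some patients with Diamond-Blackfan anaemia, had 8657 and 10082 at day 1, 7566 and 7197 at day 2, 7122 and 6944 at day 3, and 7136 and 7197 at day 4. The step lay between day 1 and day 2, and the 6 later arrays differed little. It averaged 7167 ± 43.4 on day 4 and 9370 ± 1007 on day 1 (SD, n = 2 arrays each), a change of -0.38 ± 0.11 (SE; 95% interval -0.63 to -0.14; limma adjusted p = 0.036).

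RPS21, which sits on the small subunit, had 8380 and 9604 at day 1, 7335 and 7276 at day 2, 6765 and 7504 at day 3, and 6412 and 7276 at day 4. Again the day 1 arrays were above the others, while day 3 and day 4 overlapped. It averaged 6844 ± 611 on day 4 and 8992 ± 865 on day 1 (SD, n = 2 arrays each), a change of -0.39 ± 0.12 (SE; 95% interval -0.66 to -0.12; limma adjusted p = 0.0448).

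RPS16, whose tail reaches the tRNA on the small subunit, had 8350 and 8810 at day 1, 7417 and 6963 at day 2, 6908 and 6607 at day 3, and 6783 and 6963 at day 4. Here too day 1 did not overlap with any later day. It averaged 6873 ± 127 on day 4 and 8580 ± 325 on day 1 (SD, n = 2 arrays each), a change of -0.32 ± 0.10 (SE; 95% interval -0.55 to -0.09; limma adjusted p = 0.0498). On the deposited scale RPS24, RPS21 and RPS16 changed by -0.48, -0.51 and -0.44 and did not pass (limma adjusted p = 0.0864, 0.0801 and 0.102).

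Whether a gene passed depended on the array left out, and such a fit has a single array for 1 day. When an array of day 1 or day 4 was left out, lower calls became fewer over all probe sets too. With each array left out in turn, RPL29 changed by -0.62 to -0.45 and RPS24 by -0.50 to -0.29. RPS21 changed by -0.49 to -0.30 and RPS16 by -0.36 to -0.29. RPL9 alone was called lower when either day 3 array was left out, and RPL27A and RPS21 were without day 4 replicate 2. Without day 2 replicate 1, the array highest in mesoderm markers, RPL29, RPS24, RPS21 and RPS16 changed by -0.54, -0.39, -0.39 and -0.32. Without day 2 replicate 2 these genes changed by -0.53, -0.38, -0.39 and -0.31. When each gene stood for the mean of its probe sets, RPS16, RPS21 and RPS24 were called together with RPL27A and RPS14, while RPL29 changed by -0.06 and was not (limma adjusted p = 0.848). With the arrays at the same median, RPL29, RPS24, RPS21 and RPS16 changed by -0.38, -0.12, -0.14 and -0.08. None of them passed there (limma adjusted p = 0.121, 0.520, 0.521 and 0.689). The changes of RPL29, RPS24, RPS21 and RPS16 were below 0 under all 21 alternatives tried. These genes were named because they were called lower, and the alternatives reuse the same arrays, so the constant sign says little.

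**Figure D4:**
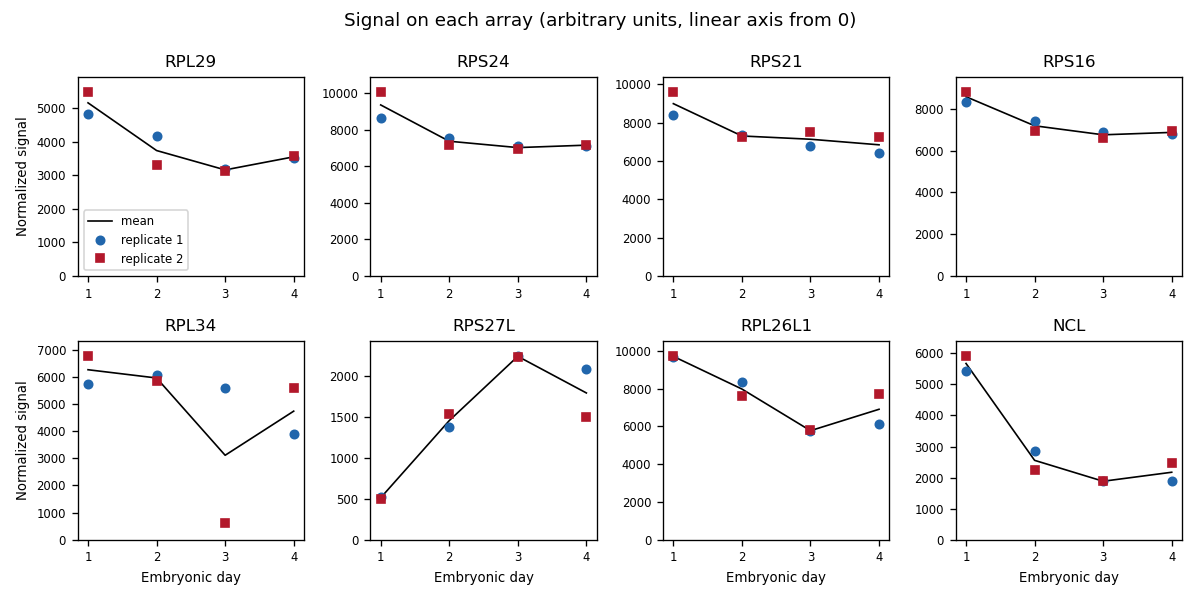
Normalized signal on each array (arbitrary units, linear axis from 0) against embryonic day, with circles for replicate 1, squares for replicate 2 and a line through the day means. RPL29, RPS24, RPS21 and RPS16 are highest on day 1. Afterwards RPS24, RPS21 and RPS16 are nearly level, while RPL29 falls further to day 3 and reads higher again on day 4. RPL34 shows 1 low array on day 3. From day 1 to day 3 the paralog RPS27L runs upwards, and the paralog RPL26L1 and the nucleolar protein NCL run downwards.

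By subunit the changes were alike in size. The 38 large-subunit genes had a median day 4 to day 1 change of -0.14, with 31 below 0 and RPL29 called. The 22 small-subunit genes had a median of -0.16, with 20 below 0 (the rounding residue of RPS20 counted) and RPS16, RPS21 and RPS24 called. The difference between the subunits was not tested. On the scaling to the same median the median of all 60 was above 0, so these signs share that limit.

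The stalk of the large subunit, which recruits the translation factors that hydrolyse GTP, is built of RPLP0 and of the acidic proteins RPLP1 and RPLP2, with RPL12 at its base. RPLP0, a gene often used as a reference in expression assays, had 6267 and 6399 at day 1, 5913 and 5941 at day 2, 5647 and 5667 at day 3, and 6399 and 5941 at day 4. Its day 4 and day 1 arrays overlapped, with a change of -0.04 ± 0.10 (SE; limma adjusted p = 0.817). RPLP2 had 2907 and 3337 at day 1, 2628 and 2386 at day 2, 2130 and 2355 at day 3, and 2827 and 2702 at day 4. It was lowest on day 3 and its day 4 to day 1 change of -0.17 ± 0.14 did not pass (SE; limma adjusted p = 0.415). RPL12 had 6929 and 6944 at day 4 against 6487 and 6102 at day 1, a change of 0.14 ± 0.10 that did not pass either (SE; limma adjusted p = 0.362). RPLP1 read between 6518 and 8568 and its change was 0.12 ± 0.13 (SE; limma adjusted p = 0.538). The changes of the 4 stalk genes thus ran from -0.17 to 0.14.

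RPL5 and RPL11 bind the 5S ribosomal RNA as a particle and, in mammals, hold MDM2 when ribosome assembly fails. RPL5 read 5647 to 6532 over the 8 arrays and changed by -0.05 ± 0.10 between day 4 and day 1 (SE; limma adjusted p = 0.764). RPL11 had 7591 and 8350 at day 4 against 8734 and 8497 at day 1, a change of -0.11 that did not pass (limma adjusted p = 0.443). For both genes the 2 arrays of day 4 lay below the 2 of day 1. RPL3 and RPL8, which reach towards the peptidyl transferase centre, changed by -0.08 and 0.05 and did not pass (limma adjusted p = 0.61 and 0.771).

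Among 6 proteins that line the exit tunnel or its mouth, the median change was -0.21. RPL4, whose loop lies in the tunnel, had 5526 and 6034 at day 4 against 6981 and 6856 at day 1. Its arrays did not overlap, but the change of -0.26 ± 0.11 missed the threshold (SE; limma adjusted p = 0.119). RPL35, RPL17 and RPL23A had changes of -0.22, -0.25 and -0.19. RPL19, one of the brightest probe sets of all at 9319 to 10803, changed by -0.03 ± 0.10 (SE; limma adjusted p = 0.841). RPL31 is described with the dim members.

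On the small subunit, RPS2 and RPS3 form the entry for the mRNA. RPS2 had 8734 and 9604 at day 4 against 10189 and 11048 at day 1, a change of -0.21 ± 0.10 (SE; limma adjusted p = 0.158). RPS3 read 5167 to 6294 and changed by -0.07 ± 0.12 (SE; limma adjusted p = 0.732). On the platform, where the mRNA leaves, RPS14, RPS26 and RPS28 changed by -0.17, -0.15 and -0.02. At the decoding site RPS15 and RPS23 changed by -0.09 and -0.20. None of these passed the test.

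RPS6, the ribosomal substrate of the S6 kinases, had 8776 and 8134 at day 1, 8094 and 8433 at day 2, 8153 and 6929 at day 3, and 7011 and 7902 at day 4. It changed by -0.18 ± 0.12 between day 4 and day 1 (SE; limma adjusted p = 0.302). RPS27A, which is made as a fusion with ubiquitin, read 8175 to 9859 and changed by -0.11 ± 0.11 (SE; limma adjusted p = 0.48). RPL38, needed in the mouse for the translation of some Hox mRNAs, had 8497 and 9460 at day 4 against 10451 and 8935 at day 1, which overlapped. RPL22 had 4832 and 5279 at day 4 against 5791 and 5580 at day 1, a change of -0.17 ± 0.12 (SE; limma adjusted p = 0.319). RPL10A and RPS25, which like RPL38 have been linked to the translation of particular mRNAs, changed by -0.06 and -0.18 and did not pass (limma adjusted p = 0.717 and 0.216).

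The remaining members were RPL6, RPL7, RPL7A, RPL13, RPL15, RPL21, RPL27, RPL30, RPL32, RPL35A, RPL36, RPL36A and RPL37 of the large subunit and RPS3A, RPS4Y1, RPS10, RPS15A and RPS29 of the small. Their changes between day 4 and day 1 ran from -0.25 for RPL7 to 0.07 for RPL35A, and none passed. RPL7 had 6358 and 7276 at day 1, 6118 and 4921 at day 2, 4952 and 5054 at day 3, and 5178 and 6344 at day 4. Both day 4 arrays lay below both day 1 arrays.

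Several members came close to the threshold between day 4 and day 1. RPL9 had 11353 and 11353 at day 1, 11048 and 9382 at day 2, 7504 and 9530 at day 3, and 8380 and 8691 at day 4, a change of -0.41 ± 0.13 (SE; limma adjusted p = 0.0561). RPL14 had 6908 and 7695 at day 1, 6829 and 5826 at day 2, 5185 and 5154 at day 3, and 5541 and 6021 at day 4, a change of -0.34 ± 0.12 (SE; limma adjusted p = 0.0814). Both were lower on day 4 than on day 1 without overlap. RPS7, RPL27A and RPS12 had changes of -0.31, -0.34 and -0.32 (limma adjusted p = 0.0569, 0.0582 and 0.0802).

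The dim members gave the least certain values. RPL31 had 159 and 187 at day 1, 229 and 250 at day 2, 233 and 202 at day 3, and 224 and 397 at day 4. Its change of 0.74 ± 0.28 was the highest of the 60 and did not pass (SE; limma adjusted p = 0.0945); on the deposited scale it was -0.08, so its sign depended on the scaling. The RPS13 probe set read 4.73 to 36.3 on the 8 arrays, near the median of all probe sets, and gave no usable level. Another probe set that the annotation assigns to both GNAL and RPS13 read 8237 to 10594, but with 2 symbols it fell outside the rule. RPL23, among the dimmest 4 together with RPLP2, had 4119 and 4358 at day 4 against 3280 and 4330 at day 1, which overlapped.

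RPL34 stood apart through a single array. It read 5741 and 6783 at day 1, 6071 and 5845 at day 2, 5607 and 613 at day 3, and 3892 and 5580 at day 4. The low value was that of day 3 replicate 2, and the 2 arrays of day 3 gave a day 3 to day 2 change of -1.67. The day 4 to day 1 change of -0.42 ± 0.78 could not be told from 0 (SE; 95% interval -2.19 to 1.35; limma adjusted p = 0.732).

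The other probe sets of the same genes gave a further reading for some members, from the same RNA and the same arrays. With a mean deposited signal of 1000 or more there were 16 of them, for 13 genes, and 15 had a day 4 to day 1 change of the same sign as the chosen probe set. Most chosen probe sets had a change below 0, so a shared sign says little about a single gene. The median gap between the chosen probe set and its bright partner was 0.09. The second RPL29 probe set had 3257 and 2437 at day 4 against 4840 and 5360 at day 1, a change of -0.85 ± 0.22 (SE; limma adjusted p = 0.0264), and 1 further bright probe set each of RPL24 and RPL38 also fell, by 0.43 and 0.38 (limma adjusted p = 0.0472 and 0.0382), where the chosen ones changed by -0.19 and -0.11 and did not pass. RPL29 also had 3 dim probe sets, with changes of 0.44, 0.37 and 0.27 that did not pass (limma adjusted p = 0.404, 0.365 and 0.631) and were below 0 on the deposited scale. RPL9 was the exception among the bright ones, with 0.54 in its second probe set, which did not pass and gave -0.02 on the deposited scale. Of 54 probe sets under 1000, 39 were tested, and 2 rose and 4 fell. A pair of dim RPS14 probe sets fell, by 1.58 and 2.08 (limma adjusted p = 0.0192 and 0.00976), where the bright one changed by -0.17. Dim probe sets of RPL12 and RPL27A fell by 1.12 and 0.99 (limma adjusted p = 0.0183 and 0.0376), and dim ones of RPL24 and RPL35A rose by 1.55 and 0.81 (limma adjusted p = 0.0433 and 0.0413), although that of RPL35A changed by -0.01 on the deposited scale. Which transcript such a dim probe set reads was not tested.

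Between day 2 and day 1 no member passed in either direction (limma, adjusted p under 0.05), where 2.15% of all probe sets were lower and 3.74% higher. At an unadjusted p under 0.05 there were 6 members, all lower, against 5199 of all 23063 probe sets. The median change of the 60 was -0.12 and 54 were below 0, though the median was 0.06 when the arrays were brought to the same median. The day 2 arrays lay wholly below those of day 1 for 38 genes and wholly above for 1, where 29.4% and 24.9% of all probe sets did so. RPL37A, a zinc-binding protein of the large subunit, had 7664 and 7480 at day 2 against 9604 and 9460 at day 1, and had the largest day 2 to day 1 difference after RPL29 and RPS24 among genes below 0. RPL29 was the one member called when day 2 replicate 1 was left out. The 95% interval lay within 1 log2 unit of 0 for 58 genes.

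Between day 3 and day 2 no member passed, and 0% of all probe sets passed in either direction. At an unadjusted p under 0.05 there was 1 member, RPL14, with a change of -0.29 ± 0.12 (SE; limma adjusted p = 0.382), and 2929 of all probe sets. The median change of the 60 was -0.06. The arrays of day 3 lay wholly below those of day 2 for 24 genes and wholly above for 5, where 22% and 23.6% of all probe sets did so. Without day 3 replicate 1, RPL34 was called lower, which rests on its 1 low array.

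Between day 4 and day 3 likewise no member passed, and 0% of all probe sets did in either direction. At an unadjusted p under 0.05 there was no member and 1464 of all probe sets. The median change was 0.06 and 15 genes were below 0, but on the deposited scale the median was -0.01. The arrays of day 4 lay wholly above those of day 3 for 23 genes and wholly below for 5, where 18.4% and 18.1% did so. RPLP2 had 2827 and 2702 at day 4 against 2130 and 2355 at day 3, and RPS26 had 5580 and 6056 at day 4 against 4921 and 5030 at day 3. Neither passed the test.

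Because ribosomal proteins read at the top of the range, they were set beside other probe sets above the same minimum of signal. Brightness above that minimum was not matched between the groups. The minimum was chosen after the values were seen. Among 184 other probe sets with a mean deposited signal of 4000 or more, 58 rose and 21 fell between day 4 and day 1. That was 42.9% in all, with a median absolute change of 0.40, where 10.6% of all probe sets rose and 12.3% fell. Among the 54 ribosomal proteins above that minimum none rose and 3 fell, with a median absolute change of 0.15. Between day 2 and day 1, 42 of the 184 rose and none fell, where 3.74% of all probe sets rose and 2.15% fell. No ribosomal protein passed. Calls were thus made among the 184, whose brightness within this range was not matched to that of the ribosomal proteins. Between 37 and 52 of the ribosomal protein probe sets read above 50% of the array's highest signal, and the effect of this on the size of their changes was not tested.

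Genes related to ribosomal proteins but outside the rule were looked at by the same test. Of 9 measured, 1 rose and 5 fell between day 4 and day 1, where 10.6% and 12.3% of all probe sets did. The number that fell was 2 without day 1 replicate 1, 1 without day 1 replicate 2, 3 without day 4 replicate 1, and 2 with the hybridization controls as the standard. RPS27L, a paralog of RPS27 that p53 induces in human cells, had 523 and 499 at day 1, 1374 and 1531 at day 2, 2245 and 2227 at day 3, and 2082 and 1497 at day 4. It was lowest on both day 1 arrays. It averaged 1790 ± 414 on day 4 and 511 ± 17.0 on day 1 (SD, n = 2 arrays each), a rise of 1.76 ± 0.19 (SE; limma adjusted p = 0.000885), which on the deposited scale was 1.10 (limma adjusted p = 0.0152). The step between day 2 and day 1 passed as well, with 1.48 ± 0.19 (SE; limma adjusted p = 0.00387), but not on the deposited scale.

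The paralog RPL26L1 read 9669 and 9752 at day 1, 8350 and 7610 at day 2, 5757 and 5791 at day 3, and 6102 and 7714 at day 4. It fell by 0.50 ± 0.13 between day 4 and day 1 (SE; limma adjusted p = 0.0248). RPL22L1 fell by 0.75 ± 0.17 and RPL7L1 by 0.55 ± 0.16 (SE; limma adjusted p = 0.0148 and 0.0431). RSL1D1, a nucleolar protein with an L1 domain, fell by 1.93 ± 0.26, and RSL24D1, an assembly factor related to RPL24, by 1.05 ± 0.19 (SE; limma adjusted p = 0.00201 and 0.00657). RPL39L, a paralog that rodents and humans use mainly in the testis, read 6546 to 7610 and did not pass. Whether the chicken gene of that name has the same role was not tested. RACK1, a scaffold on the small subunit, had 4804 and 4907 at day 4 against 5667 and 6267 at day 1, a change of -0.29 that did not pass (limma adjusted p = 0.124).

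Most of the factors that assemble ribosomes fell between day 4 and day 1. Of 85 tested genes of ribosome biogenesis, 68 fell and none rose, with a median change of -1.29, while the background was 12.3% lower. On the deposited scale 82 fell, where 27.5% of all probe sets were lower. The count was 39 without day 1 replicate 1, 41 without day 1 replicate 2 and 42 without day 4 replicate 1. The assembly factors and the ribosomal proteins had been chosen with results of these data known, and the 2 lists were not tested against each other. NPM3, a histone chaperone of the nucleolus, had 3715 and 2628 at day 1, 1071 and 932 at day 2, 360 and 269 at day 3, and 195 and 456 at day 4. It averaged 326 ± 184 on day 4 and 3171 ± 769 on day 1 (SD, n = 2 arrays each), a fall of 3.31 ± 0.36 (SE; limma adjusted p = 0.000906). NCL, the nucleolar protein nucleolin, had 5422 and 5929 at day 1, 2858 and 2252 at day 2, 1884 and 1879 at day 3, and 1877 and 2466 at day 4.

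NCL fell by 1.39 ± 0.18 and NPM1, the nucleolar chaperone nucleophosmin, by 1.31 ± 0.17 (SE; limma adjusted p = 0.00174 and 0.00201). GNL3, a GTPase of the nucleolus, and EMG1, a methyltransferase of the small-subunit RNA, fell by 2.06 ± 0.24 and 2.00 ± 0.22 (SE; limma adjusted p = 0.00121 and 0.000944). SDAD1, whose yeast counterpart acts in large-subunit export, fell by 1.88 ± 0.22 (SE; limma adjusted p = 0.0011). Between day 2 and day 1, 17 of the 85 tested biogenesis genes had already fallen, NCL and NPM3 among them. Of all probe sets 2.15% were lower in that comparison, and no ribosomal protein passed. The members of the list that did not pass for day 4 against day 1 included SBDS, EIF6 and EFL1. They act together in the last step of large-subunit maturation and were picked out after the values were seen. On the deposited scale 82 of the 85 fell, so the number that did not pass depended on the setting. The summed mesoderm and cardiac marker signal was also lower on day 4 than on day 1, 423 to 486 against 2678 to 3583, and its part in these falls was not tested.

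Ribosomal proteins are brought into the nucleus by importins and guarded by dedicated chaperones. Where 12.3% of all probe sets fell (27.5% on the deposited scale), 9 of 15 such genes did, with a median change of -0.88. The count was 3 when either day 1 array or day 4 replicate 1 was left out, and 13 on the deposited scale. KPNB1, importin beta, had 5092 and 4538 at day 1, 2951 and 2325 at day 2, 1318 and 1140 at day 3, and 884 and 1622 at day 4, a day 4 to day 1 fall of 1.99 ± 0.27 (SE; limma adjusted p = 0.00206). BCCIP, whose yeast counterpart escorts Rpl23, fell by 1.53 ± 0.23 (SE; limma adjusted p = 0.00304). IPO7, an importin for ribosomal proteins, fell by 1.23 ± 0.23 and HEATR3, the chaperone of RPL5, by 1.43 ± 0.30 (SE; limma adjusted p = 0.00711 and 0.0119).

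Of 20 other TOP mRNAs 4 fell and none rose, where 12.3% and 10.6% of all probe sets did. Their median of -0.06 became 0.09 with the arrays at the same median and 0.04 without day 4 replicate 1. The number that fell was 1 without day 1 replicate 1, and 2 without day 1 replicate 2 or day 4 replicate 1. The elongation factors EEF1A1 and EEF2 changed by 0.07 ± 0.10 and -0.01 ± 0.11 and did not pass (SE; limma adjusted p = 0.63 and 0.963). The poly(A)-binding protein PABPC1 changed by -0.09 and did not pass (limma adjusted p = 0.527). The 4 that fell were NPM1, IPO7, HNRNPA1 and NAP1L1. NPM1 and IPO7 stand in the lists above too.

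Between day 4 and day 1, 12.3% of all probe sets fell and 10.6% rose. On the deposited scale 27.5% fell, with a median of -0.55, and with the arrays at the same median 19% did. Of 30 regulators of TOP translation, mTOR signalling and ribosome production, 6 fell and none rose, with a median of -0.26. None fell without day 1 replicate 2 and 3 fell without day 4 replicate 1, while 13 fell on the deposited scale, with a median of -0.93, and 10 fell and 1 rose with the arrays at the same median. MYC, a transcription factor that drives ribosome biogenesis, had 776 and 655 at day 1, 617 and 104 at day 2, 160 and 33.3 at day 3, and 21.5 and 20.0 at day 4. Its arrays of day 2 and of day 3 differed widely between replicates. Replicate 1 was the higher each time, as for the summed mesoderm and cardiac markers, whose part was not tested. For MYC day 4 was far below day 1, by 4.31 ± 0.76 (SE, limma adjusted p = 0.00612). MYCN fell by 3.26 ± 0.58 and CNBP, which binds TOP mRNAs, by 0.89 ± 0.16 (SE; limma adjusted p = 0.00634 and 0.00677). RHEB, the GTPase that activates mTOR, fell by 1.11 ± 0.23, and the S6 kinase gene RPS6KB1 by 0.81 ± 0.22 (SE; limma adjusted p = 0.0121 and 0.0306). The S6 kinase gene RPS6KB2, dim at 13.9 to 50.1, changed by 0.08 and did not pass (limma adjusted p = 0.858). MTOR and LARP1 themselves changed by -0.44 and -0.19 and did not pass (limma adjusted p = 0.213 and 0.608).

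Other large complexes were counted in the same way. Of all probe sets 12.3% fell, against 27.5% on the deposited scale and 19% with the arrays at the same median. Of 65 mitochondrial ribosomal proteins, 18 fell and 1 rose between day 4 and day 1, with a median change of -0.47. The number that fell was 39 on the deposited scale and 30 at the same median, and 5, 6 and 7 without day 1 replicate 1, day 1 replicate 2 and day 4 replicate 1. MRPS16 was the one that rose, by 2.46 ± 0.23 (SE; limma adjusted p = 0.000502), with 737 and 660 at day 4 against 129 and 100 at day 1. Of 30 proteasome subunits 19 fell and none rose, with a median of -0.78, and PSMA3 fell by 1.55 ± 0.17 (SE; limma adjusted p = 0.000863). The proteasome count was 10 when either day 1 array or day 4 replicate 1 was left out. Set beside these counts, 4 of the 60 cytosolic ribosomal proteins fell, with a median of -0.15.

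**Figure D5:**
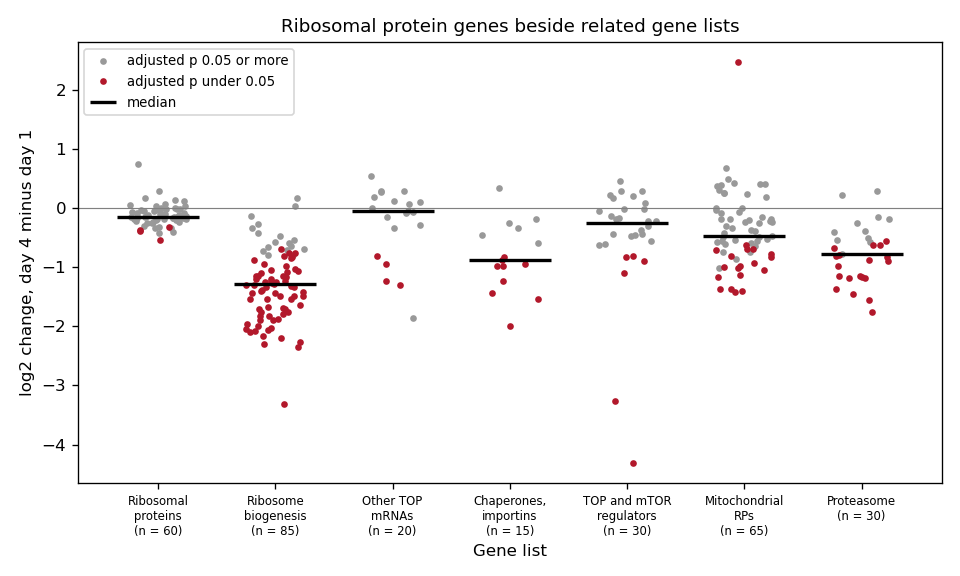
Change between day 4 and day 1 on the log2 scale after quantile normalization, 1 point a gene, for the 60 ribosomal proteins and 6 related lists; red points passed the test and black bars are medians. The ribosomal proteins lie in a narrow band just below 0 (median -0.15, 4 called lower). The biogenesis factors lie around a median of -1.29, with 68 of 85 called lower. With the arrays at the same median the ribosomal proteins' median is 0.07.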

How the data were processed

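The values were signal intensities that the authors deposited, in arbitrary units on a linear scale, for 8 arrays; the submitters' processing notes name MAS5, with settings that these sources do not state. Per the labels' protocols, 5 µg of total RNA was labelled with biotin for each array. Of the non-control probe sets, 38439, those with 1 symbol numbered 27168, named from the platform annotation. The deposited signals were quantile-normalized over all non-control probe sets, raised by 16 and log2-transformed, which understates changes of dim probe sets. Probe sets with a mean deposited signal above the 40th percentile (9.96) were tested, 23063 in all, in limma 3.58.1 (R 4.3.3; lmFit, eBayes with an intensity trend, 4 residual and 4.67 prior degrees of freedom), with all 8 arrays in 1 fit and Benjamini-Hochberg adjustment at 0.05. The labels call the 2 samples of a day independent; 2 arrays a day limit the precision.

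The members and lists were chosen with earlier results of these data known. Functional roles were assigned, and RPS6KB2 was added, after the values were seen. Named were called members without overlap, those first by F-test, the 4 brightest and 4 dimmest, members whose probe sets disagree, listed textbook members and up to 4 genes of each list by adjusted p; other genes named (RPL4, RPL35 and RPS2 to RPS28 by role, the near-threshold members, NCL, NPM1, RPS6KB1, MTOR, LARP1 and the TOP mRNAs without a change) were chosen after their values were seen. SBDS, EIF6 and EFL1 were likewise chosen after their values were seen. Simulated arrays were used to test the fit. Alternatives covered scaling, pseudocount, filter, variance trend, probe set choice, replicate block and each array left out. No probe or protein sequences were used.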

Additional observations from a re-analysis of the deposited data

How the results depend on the processing

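The count of 4 members lower on day 4 than on day 1 depended on the setting. It was 1 on the deposited scale (RPL29), where 27.5% of all probe sets were lower. With the arrays at the same median (19% of all lower) and with the hybridization controls as the standard (17.6%) it was 0. The count was also 0 without a filter (5.81%) and without an intensity trend (12%). It was 2 with a robust trend (RPL29 and RPS24, 12.3% of all lower) and with the compared days alone (RPL29 and RPL9, 12.7%). With the mean of each gene's probe sets the F-test called RPS14. The count of lower members was then 5 (RPL27A, RPS14, RPS16, RPS21, RPS24), without RPL29, against 12.7% of all that was tested. It was 7 with a pseudocount of 64 (12.6% of all probe sets lower) and with the 60th percentile filter (17.3%). With the replicate number as a block it was 2 (RPL29, RPS21), where 11.3% of all probe sets were lower. On the deposited scale without day 1 replicate 2, an alternative added after the data were seen, it was 0. Leaving out each array gave 0 to 4 lower and 0 to 1 higher (RPL31). Day 2 against day 1 gave 1 lower (RPL37A) with the 60th percentile filter and 0 to 1 with an array left out; day 3 against day 2 gave 0 to 1. The F-test count of 1 was 0 on the deposited scale, at the same median, with hybridization controls, without a filter, without a trend and with the block, 2 with the 60th percentile filter, and 0 to 2 with an array left out; it could not be fitted to the compared days alone, since it uses all 4. The cause was not tested. No label says that replicate numbers pair the samples. Over probe sets, the replicate differences of day 2 and day 3 correlated at 0.38. Those of the other pairs of days correlated at -0.11 to 0.05. RPL29 ranged from -0.74 on the deposited scale to -0.06 with the mean of its probe sets (limma adjusted p over the alternatives 0.0169 to 0.848, the higher with that mean). Biogenesis genes lower on day 4 numbered 39 to 70 with an array left out. Signals near the floor and the top of the scanner's range limit what dim and bright probe sets can show.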
